A study of Mus musculus with 16 samples.

Results

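The genes described here are 10 mouse genes of iron and zinc handling: Tfrc and Slc11a2 (iron uptake), Slc40a1 (iron export), Fth1 and Ftl1 (ferritin, iron storage), Ireb2 and Aco1 (iron regulatory proteins), Mt1 and Mt2 (metallothioneins) and Slc30a1 (zinc export). They were chosen by name, with earlier results of these data known. Every array probe carrying one of these names, directly or through its RefSeq transcript, was taken: 14 probes in all, of which 13 passed the filter on dim signals. The 10 genes are part of 30973 genes tested. The cells were mouse embryonic stem cells of the reporter line CGR8-Myh6-GFP, which turn on GFP when they become cardiomyocytes, taken through cardiac differentiation in 384-well plates. On day 4 they received the vehicle DMSO (2 samples per time point), the hawthorn extract WS1442 at 0.25 mg/ml (3 samples per time point) or the MeOH eluate at 0.1 mg/ml (3 samples per time point), and RNA was collected 6 h or 24 h later. WS1442 is made by ethanol extraction of leaves and flowers of hawthorn and then dried, and the MeOH eluate is a fraction of it that is rich in oligomeric procyanidins, plant polyphenols that can bind metal ions. The question put to the data was whether genes that answer to iron or zinc moved under the extract or its fraction. All 6 groups came from 1 cell line, and the labels do not say whether the replicates were separate cultures, so the p-values measure the spread between these samples, which may be technical.

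Cells take up iron bound to transferrin through the transferrin receptor, store it in ferritin and release it through ferroportin. The iron regulatory proteins bind hairpins in the messages of these genes when iron is scarce, which stabilizes the receptor's message and blocks ferritin translation, so that much of this control acts on messages already made or on their translation and only part of it shows in an array signal. Zinc acts more directly on transcription: the zinc sensor MTF1 binds metal response elements in the promoters of metallothionein genes and of the zinc exporter gene Slc30a1, and these genes are widely read as reporters of free zinc.

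The promoters of Mt1, Mt2 and Slc30a1 are shown because these 3 genes are known targets of MTF1 and all 3 fell with MeOH eluate at 6 h. Each runs from 250 bases before the annotated start to 50 bases after it, 5′ to 3′ on the strand of the gene, in RefSeq's mouse sequence of build GRCm38.p6. Capitals mark the metal response element core, searched as TGCACNC or TGCGCNC on both strands. Mt1 lies at chr8:94178839-94179138, Mt2 at chr8:94172368-94172667 and Slc30a1 at chr1:191906531-191906830, all on the plus strand.
Mt1: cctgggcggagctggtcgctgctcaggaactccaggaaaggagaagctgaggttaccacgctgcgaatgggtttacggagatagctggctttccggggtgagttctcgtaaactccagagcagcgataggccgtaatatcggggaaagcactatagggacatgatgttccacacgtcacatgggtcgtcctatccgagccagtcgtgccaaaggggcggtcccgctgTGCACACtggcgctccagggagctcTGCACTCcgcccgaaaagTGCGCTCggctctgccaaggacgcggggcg
Mt2: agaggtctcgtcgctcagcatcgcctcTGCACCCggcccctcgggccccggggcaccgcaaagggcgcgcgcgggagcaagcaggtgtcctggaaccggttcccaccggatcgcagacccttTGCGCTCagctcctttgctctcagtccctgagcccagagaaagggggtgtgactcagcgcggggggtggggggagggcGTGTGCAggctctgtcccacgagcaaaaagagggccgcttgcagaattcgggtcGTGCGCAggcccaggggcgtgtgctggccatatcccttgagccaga
Slc30a1: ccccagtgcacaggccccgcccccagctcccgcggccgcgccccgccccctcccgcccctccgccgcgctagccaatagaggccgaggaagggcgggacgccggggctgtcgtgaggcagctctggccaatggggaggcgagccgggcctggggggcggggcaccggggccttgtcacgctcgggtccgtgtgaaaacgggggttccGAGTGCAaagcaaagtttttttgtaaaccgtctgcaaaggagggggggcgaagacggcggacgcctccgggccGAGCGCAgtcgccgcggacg

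Mt1 held 3 matches, Mt2 held 4 and Slc30a1 held 2. At least 1 match was found in 25.7% of 32851 promoters of this length, and 3 or more in 1.97%. The share with 2 or more was not counted, so the 2 matches of Slc30a1 have no such share beside them. Among the other members, the first of 2 Tfrc promoters held 2 matches that overlap each other, and Aco1 held 1; the promoters of Fth1, Ftl1 and Ireb2 held none. The antioxidant response element core, searched as TGACNNNGC on both strands, had 1 match in Mt2, 1 in Slc30a1 and 0 in the other members' windows, against 12.4% of all promoters with at least 1, and it did not overlap a metal response element. Sequence outside these windows was not searched, so these counts are not totals for a gene's promoter, and a 0 does not mean that the gene lacks the element. Of the 10 genes, 8 matched an entry of the promoter table. Slc11a2 and Slc40a1 had no entry, so their promoters were not searched.

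**Figure D1:**
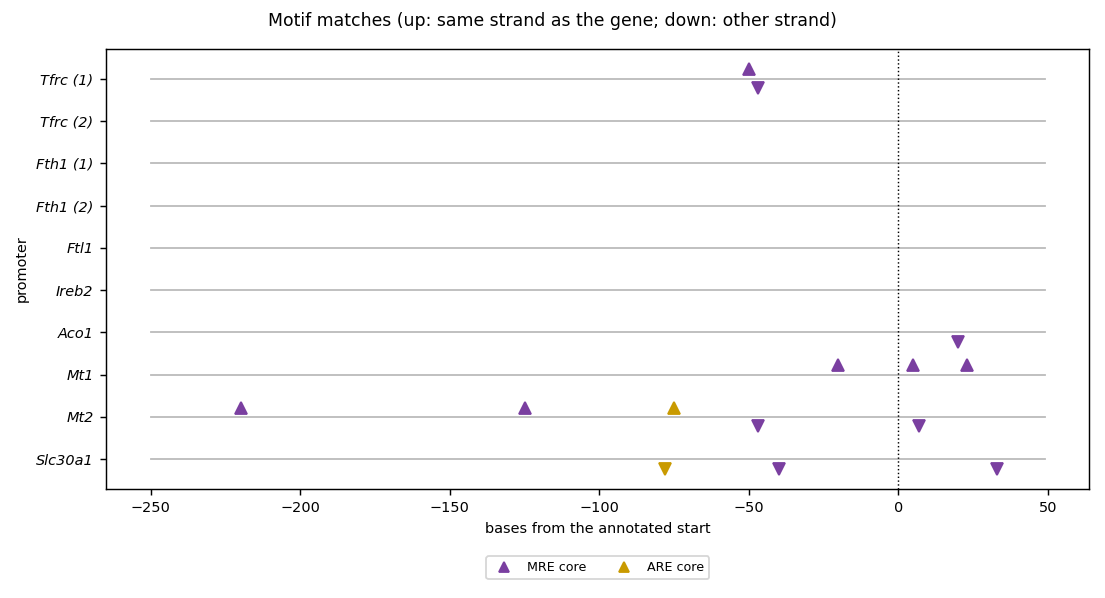
Positions of the motif matches in the promoter windows of the members (x axis: bases from the annotated start, which is 0; one line per promoter). Purple triangles are metal response element cores and yellow triangles antioxidant response element cores, pointing up on the strand of the gene and down on the other strand; Mt2 held 4 purple matches, Mt1 3 and Slc30a1 2.

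Signals were read on 1-colour arrays, on which between 55.1% and 63.0% of probes were well above background. The 2 DMSO arrays at 24 h lay near opposite ends of this range, at 63.0% for replicate 1 and 55.5% for replicate 2. Their correlation with each other, 0.9836, was the lowest between replicates of any group, and every 24 h change against DMSO rests on them. RNA integrity numbers ran from 8.6 to 10. The 8 arrays of each time shared 1 slide: slide and time point cannot be told apart. Treatments were compared with DMSO and with each other within a time point. Only the tests of whether a change differed between the times set changes from different slides against each other. Checked against markers, the cells had all 8 pluripotency and all 8 mesoderm genes well above background on every array, while Myh6, whose promoter drives the reporter, was well above background on no array of MeOH eluate at 6 h or of any group at 24 h. The summed pluripotency signal at 6 h was 26500 to 27800 in DMSO, 25700 to 25900 with WS1442 and 24700 to 25500 with MeOH eluate (linear signal). With MeOH eluate at 6 h, 3 of these 8 genes were called lower and 0 higher, with changes from -1.17 to 0.28 and a median of -0.34. With WS1442 at 6 h 1 was called lower, and at 24 h 3 with WS1442 and 1 with MeOH eluate. The summed mesoderm signal was lower with treatment: at 6 h it was 4200 to 4240 in DMSO, 3080 to 3470 with WS1442 and 2370 to 2530 with MeOH eluate (linear signal), and at 24 h 3600 to 3620, 3050 to 3170 and 2490 to 2700. Its genes did not all move one way: with MeOH eluate at 6 h 1 of 8 was called higher and 3 lower, with changes from -2.39 to 0.46 and a median of 0.07, and with WS1442 at 6 h 2 were called, both lower, with a median of -0.06. At 24 h the summed markers of cardiac progenitors and cardiomyocytes were 1280 to 1300 in DMSO, 1060 to 1180 with WS1442 and 693 to 819 with MeOH eluate (1 of 7 tested called higher and 2 lower, then 3 lower). Those of neuroectoderm were 6710 to 6730, 8000 to 8420 and 7860 to 8630 (3 of 6 called higher, then 2 higher and 1 lower). The dye load also differed at 24 h, with 25.8 to 26.1 pmol Cy3 per µg cRNA in DMSO, 31.8 to 32.8 with WS1442 and 27.1 to 30.3 with MeOH eluate. At 6 h it was 23.5 to 26.4 in DMSO, 26.5 to 27.6 with WS1442 and 24.7 to 29.5 with MeOH eluate. The part of these differences in the results below was not tested.

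The metallothionein genes Mt1 and Mt2 and the zinc exporter gene Slc30a1 fell with MeOH eluate at 6 h, while their changes with WS1442 at 6 h did not pass the test. At 24 h Mt1, Mt2 and the iron exporter gene Slc40a1 rose with both treatments. The ferritin light chain gene Ftl1 rose with MeOH eluate at both times. With WS1442 at 6 h, 1 of the 10 genes was called at an adjusted p under 0.05 (limma, Benjamini-Hochberg over all genes tested), against 5.33% of all genes (3.95% higher, 1.38% lower). With MeOH eluate at 6 h, 7 of 10 were called (3 higher, 4 lower), against 16.9% of all genes (8.42% higher, 8.49% lower). With WS1442 at 24 h, 6 of 10 were called, all higher, against 24.5% (12.4% higher, 12.1% lower), and with MeOH eluate at 24 h, 6 of 10 (5 higher, 1 lower), against 17.9% (9.37% higher, 8.5% lower). No member passed the study's limits of a fold over 2 and an unadjusted p under 0.05 in any of these 4 comparisons, which 0.436%, 2.1%, 2.04% and 2.94% of all genes did in the same order. Treated and DMSO samples did not overlap, with the treated ones higher, for 6 members with WS1442 at 6 h (19.9% of all genes), 4 with MeOH eluate at 6 h (25.1%), 6 with WS1442 at 24 h (27%) and 5 with MeOH eluate at 24 h (21.8%). With the treated ones lower, it was 0 (15.7%), 5 (25%), 0 (24.1%) and 2 (21.6%) members. The 4 comparisons share DMSO samples in pairs, and in bulk RNA, fewer cells of a type and less RNA per cell cannot be told apart.

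The median change over the 10 genes was 0.12 with WS1442 and -0.1 with MeOH eluate at 6 h, and 0.2 and 0.06 at 24 h (log2), beside -0.01, 0, 0.04 and 0.01 over all genes tested. Student's test on the same values, called the methods' t-test here, gave an adjusted p under 0.05 for 0, 0, 0 and 1 member in the 4 comparisons and an unadjusted p under 0.05 for 2, 6, 6 and 6, against 3, 8, 6 and 7 with limma. With the 75th percentile of each array as the only scaling, 3, 6, 3 and 6 members were called. No shares of all genes stand beside these counts, so they do not show whether the members differed from other genes in these settings.

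**Figure D2:**
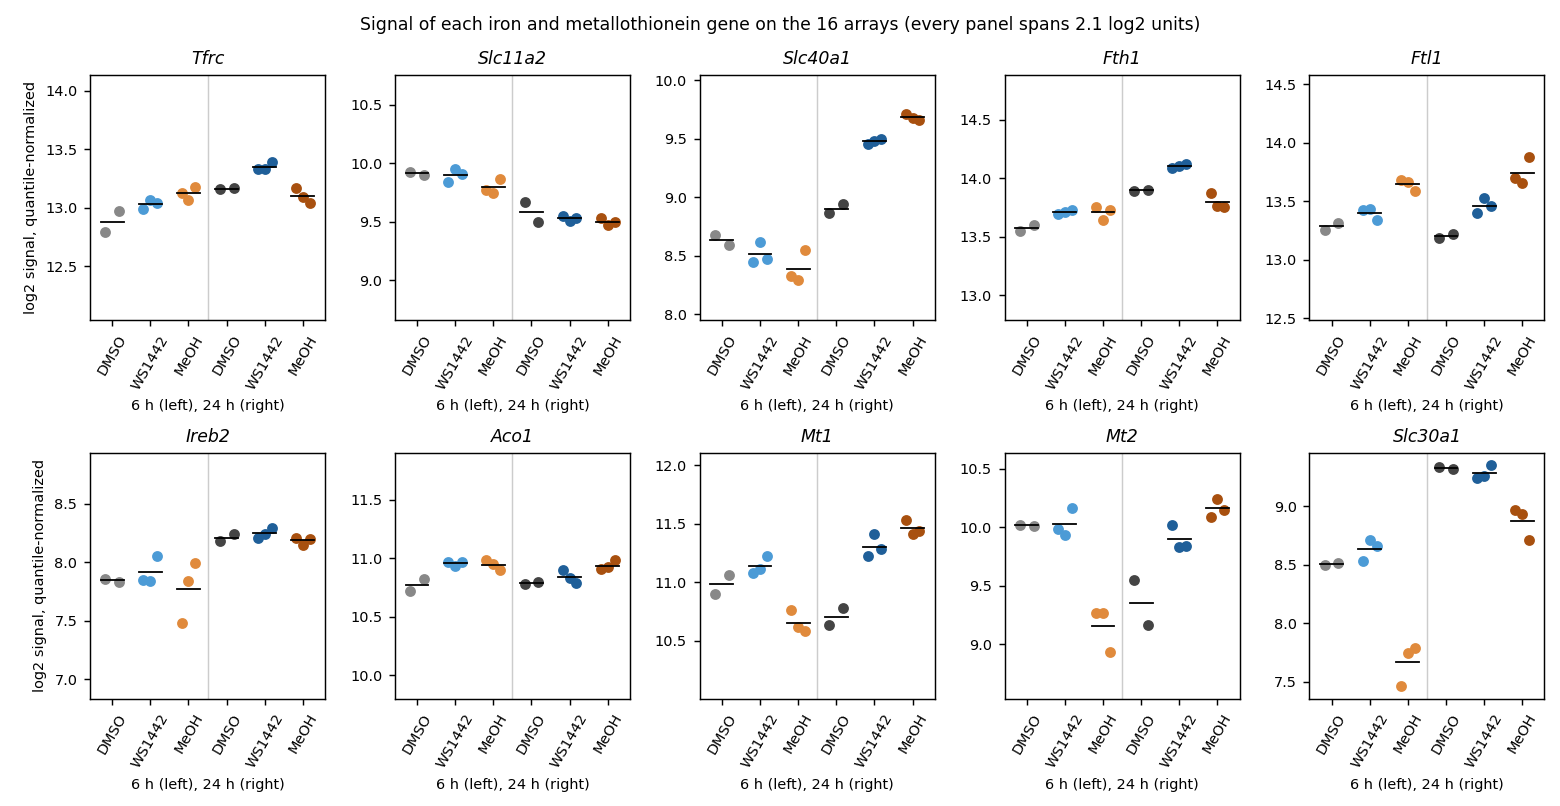
Quantile-normalized log2 signal of each member on the 16 arrays (y axis, each panel spanning the same 2.1 log2 units around its own middle; x axis, the 6 groups, 6 h left and 24 h right of the grey line). Points are arrays and bars are group means; among the 6 h samples Mt1, Mt2 and Slc30a1 are lowest in the 3 MeOH eluate samples, and Slc40a1, Mt1 and Mt2 are higher than DMSO in all treated samples at 24 h.

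Mt2, which encodes a small cysteine-rich protein that binds zinc, copper and cadmium, read 10.02 and 10.01 in the DMSO samples at 6 h, 9.98, 9.93 and 10.16 with WS1442 and 9.27, 9.27 and 8.93 with MeOH eluate (log2 signal). The 3 MeOH eluate samples were the lowest of the 8 and did not overlap with DMSO, while the WS1442 samples lay around the DMSO values. Mt2 thus fell by 0.86 on the log2 scale with MeOH eluate, to 0.55 of DMSO (SE 0.12, adjusted p = 0.000233), and its change with WS1442 was 0.01 (95% interval -0.24 to 0.27). At 24 h Mt2 read 9.55 and 9.16 in DMSO, 10.02, 9.83 and 9.84 with WS1442 and 10.09, 10.24 and 10.15 with MeOH eluate. All 6 treated samples were above both DMSO samples, which themselves lay apart. Mt2 rose 1.45-fold with WS1442 (log2 change 0.54 ± 0.12 (SE), adjusted p = 0.00449) and 1.75-fold with MeOH eluate (0.8 ± 0.12, adjusted p = 0.000232). The WS1442 call at 24 h rested on DMSO replicate 2: without it the change was 0.34 and the adjusted p = 0.0712.

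Mt1, the neighbouring metallothionein gene, read 10.9 and 11.06 in DMSO at 6 h, 11.08, 11.11 and 11.22 with WS1442 and 10.76, 10.62 and 10.58 with MeOH eluate. The MeOH eluate samples were again below both DMSO samples. Mt1 fell by 0.32 on the log2 scale with MeOH eluate (SE 0.08, adjusted p = 0.00961), and without DMSO 6 h replicate 2 the change was -0.24 with an adjusted p = 0.116. With WS1442 the change of Mt1 at 6 h was 0.16 (adjusted p = 0.264). At 24 h Mt1 read 10.63 and 10.78 in DMSO, 11.22, 11.41 and 11.28 with WS1442 and 11.53, 11.41 and 11.44 with MeOH eluate. All 6 treated samples were above both DMSO samples, by more than the gap between those. Mt1 rose 1.51-fold with WS1442 (log2 change 0.6 ± 0.08 (SE), adjusted p = 9.34e-05) and 1.68-fold with MeOH eluate (0.75 ± 0.08, adjusted p = 8.54e-06).

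Slc30a1, whose protein ZnT1 carries zinc out of the cell across the plasma membrane, read 8.5 and 8.51 in DMSO at 6 h, 8.53, 8.71 and 8.66 with WS1442 and 7.46, 7.74 and 7.79 with MeOH eluate. The 3 MeOH eluate samples were all lower than the other 5 by more than the whole spread of those 5. Slc30a1 fell by 0.84 on the log2 scale with MeOH eluate, to 0.56 of DMSO (SE 0.1, adjusted p = 4.65e-05), and its change with WS1442 was 0.13 (95% interval -0.08 to 0.34). At 24 h it read 9.33 and 9.32 in DMSO, 9.24, 9.26 and 9.35 with WS1442 and 8.97, 8.93 and 8.71 with MeOH eluate. The MeOH eluate samples were still the lowest, and the WS1442 samples overlapped with DMSO. The decrease with MeOH eluate at 24 h was 0.46 on the log2 scale in size (change -0.46, SE 0.1, adjusted p = 0.00392), and the change with WS1442 was -0.04 (adjusted p = 0.798). At 24 h, therefore, Slc30a1 was lower with MeOH eluate in the same samples in which Mt1 and Mt2 were higher. A second Slc30a1 probe, which lists the same RefSeq transcript as the first and a predicted one, gave a change of -0.1 at 6 h (95% interval -0.62 to 0.42) and 0.05 at 24 h (-0.47 to 0.57) with MeOH eluate. Its mean log2 signal over the 16 arrays was 5.33, against 8.69 for the first probe. With the median over both probes in place of the brighter one, the changes were -0.47 (adjusted p = 0.0232) and -0.2 (adjusted p = 0.344).

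Slc40a1, which encodes ferroportin, the only known iron exporter of mammalian cells, read 8.68 and 8.59 in DMSO at 6 h, 8.45, 8.62 and 8.47 with WS1442 and 8.33, 8.29 and 8.55 with MeOH eluate. The MeOH eluate samples lay below both DMSO samples by a narrow margin. The decrease was 0.25 on the log2 scale in size (change -0.25, SE 0.08, adjusted p = 0.0414) and passed the threshold only just: it was above 0.05 in 11 of 16 fits that left out 1 array, between 0.0506 and 0.292, and was 0.134 in a fit of the 6 h samples alone. At 24 h Slc40a1 read 8.87 and 8.94 in DMSO, 9.46, 9.48 and 9.5 with WS1442 and 9.71, 9.68 and 9.66 with MeOH eluate. The groups did not overlap, with DMSO lowest, WS1442 in between and MeOH eluate highest. The difference between MeOH eluate and WS1442 did not pass the test (0.2 on the log2 scale, limma, adjusted p = 0.0628). Slc40a1 rose 1.49-fold with WS1442 (log2 change 0.57 ± 0.08 (SE), adjusted p = 0.000147) and 1.71-fold with MeOH eluate (0.78 ± 0.08, adjusted p = 7.59e-06), and both calls were kept in all 16 fits that left out 1 array. A second Slc40a1 probe was well above background on no array and was not tested. Of cell types known for ferroportin, the summed markers of primitive erythroid cells (7 of 9 tested, linear signal) were 659 to 662 in DMSO at 24 h, 456 to 484 with WS1442 and 383 to 478 with MeOH eluate, where 1 was called lower with WS1442 and 1 higher and 1 lower with MeOH eluate (changes from -1.89 to 1.45, median 0.09). Those of visceral endoderm and liver (5 of 10 tested) were 1890 to 2100, 2420 to 2920 and 2000 to 2130, with 2 called higher and then 1 lower. Of that list, Ttr, Apoa1, Alb and Amn were well above background on no array at 24 h. Summed macrophage markers were 500 to 570, 701 to 765 and 744 to 824, with 4 of 8 tested and Lyz2 and C1qb well above background on no array at 24 h. Only 1 of the 4 was called higher with each treatment, and the changes ran from -0.51 to 0.8 and from -0.49 to 0.92. The part of these cells in the rise of Slc40a1 was not tested.

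Ferritin is built of heavy chains, which oxidize iron, and light chains, which help to form its mineral core. The light chain gene Ftl1 read 13.26 and 13.32 in DMSO at 6 h, 13.43, 13.44 and 13.34 with WS1442 and 13.68, 13.67 and 13.59 with MeOH eluate. All treated samples were above both DMSO samples, the MeOH eluate samples by the wider margin. Ftl1 rose 1.28-fold with MeOH eluate (log2 change 0.36 ± 0.06 (SE), adjusted p = 0.00105), and its change with WS1442 was 0.11 (adjusted p = 0.335). At 24 h it read 13.19 and 13.22 in DMSO, 13.4, 13.53 and 13.46 with WS1442 and 13.7, 13.66 and 13.88 with MeOH eluate. The order of the groups was the same as at 6 h and no groups overlapped. Ftl1 rose 1.2-fold with WS1442 (0.26 ± 0.06, adjusted p = 0.00553) and 1.46-fold with MeOH eluate (0.54 ± 0.06, adjusted p = 1.95e-05). The WS1442 call was lost without DMSO 24 h replicate 1 (0.25, adjusted p = 0.0541) and with the 75th percentile scaling (0.1, adjusted p = 0.254). The Ftl1 probe lists further predicted transcripts beside those of Ftl1, so a share of its signal may come from near-identical copies of the gene.

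The heavy chain gene Fth1 read 13.55 and 13.6 in DMSO at 6 h, 13.69, 13.71 and 13.73 with WS1442 and 13.75, 13.64 and 13.73 with MeOH eluate, for changes of 0.13 with each (adjusted p = 0.0947 and 0.0534). These missed the threshold here and passed it with the authors' normalized values (0.16 and 0.18, adjusted p = 0.0313 and 0.00599). At 24 h it read 13.89 and 13.9 in DMSO, 14.09, 14.1 and 14.12 with WS1442 and 13.87, 13.76 and 13.75 with MeOH eluate. WS1442 samples were above DMSO and MeOH eluate samples below it. Fth1 rose 1.15-fold with WS1442 (0.21 ± 0.04 (SE), adjusted p = 0.00294) in the quantile-normalized values, while with the 75th percentile scaling the change turned to -0.01 (adjusted p = 0.888). With MeOH eluate it changed by -0.1 (adjusted p = 0.122), and by -0.23 (adjusted p = 0.00578) with that scaling.

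Tfrc encodes the transferrin receptor, the main port of iron entry, whose message is stabilized when iron is scarce. It read 12.79 and 12.97 in DMSO at 6 h, 12.99, 13.07 and 13.04 with WS1442 and 13.13, 13.07 and 13.18 with MeOH eluate. All 6 treated samples lay above both DMSO samples, though the DMSO samples differed from each other by more than the replicates of either treatment did. Tfrc rose 1.19-fold with MeOH eluate at 6 h (log2 change 0.25 ± 0.05 (SE), adjusted p = 0.00593), a call lost without DMSO 6 h replicate 1 (0.16, adjusted p = 0.135), and its change with WS1442 was 0.16 (adjusted p = 0.112). At 24 h Tfrc read 13.16 and 13.17 in DMSO, 13.33, 13.33 and 13.39 with WS1442 and 13.17, 13.09 and 13.04 with MeOH eluate. Only the WS1442 samples stood apart from DMSO. Tfrc rose 1.14-fold with WS1442 (0.19 ± 0.05, adjusted p = 0.0191), but with the 75th percentile scaling the change was 0.02 (adjusted p = 0.832), and the call was also lost without DMSO 24 h replicate 1 (0.18, adjusted p = 0.114), DMSO 24 h replicate 2 (0.2, adjusted p = 0.0619) or WS1442 24 h replicate 3 (0.17, adjusted p = 0.0685). With MeOH eluate the change at 24 h was -0.06 (adjusted p = 0.502).

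Slc11a2 encodes DMT1, the carrier that moves ferrous iron across the gut brush border and out of endosomes. Its brightest probe ran from 9.75 to 9.95 at 6 h and from 9.47 to 9.67 at 24 h over all groups, and none of its 4 changes, from -0.12 to -0.01, passed the test. A second probe (NM_008732.2) read 7.59 and 7.68 in DMSO at 6 h, 7.9, 7.95 and 8 with WS1442 and 7.65, 7.49 and 7.57 with MeOH eluate. The WS1442 samples were the highest of the 8 on this probe, with a change of 0.31 (SE 0.09) whose adjusted p = 0.0518 over all probes missed the threshold. The remaining probe (XM_006520581.1) changed by 0.13, 0.29, 0.23 and 0.22 in the 4 comparisons, none of which passed.

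Of the genes for the iron regulatory proteins, Ireb2, which encodes IRP2, ran from 7.48 to 8.05 at 6 h and from 8.15 to 8.29 at 24 h over all groups. Its changes lay between -0.07 and 0.07, with 95% intervals that reached from -0.32 to 0.32 at their widest, and none passed. Aco1, which encodes IRP1, an aconitase that turns into an RNA-binding protein when it loses its iron-sulfur cluster, read 10.72 and 10.82 in DMSO at 6 h, 10.97, 10.93 and 10.97 with WS1442 and 10.98, 10.95 and 10.9 with MeOH eluate. All 6 treated samples were above both DMSO samples. The changes of 0.19 (adjusted p = 0.0393) and 0.17 (adjusted p = 0.0253) passed at 6 h, as did 0.15 with MeOH eluate at 24 h (adjusted p = 0.0495), and that with WS1442 at 24 h was 0.05 (adjusted p = 0.527). These 3 calls were not stable: 10, 3 and 11 of 16 fits that left out 1 array lost them, in the same order, with changes of 0.14, 0.12 and 0.14 and adjusted p of 0.457, 0.292 and 0.212 when replicate 1 of DMSO at the matching time was left out.

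**Figure D3:**
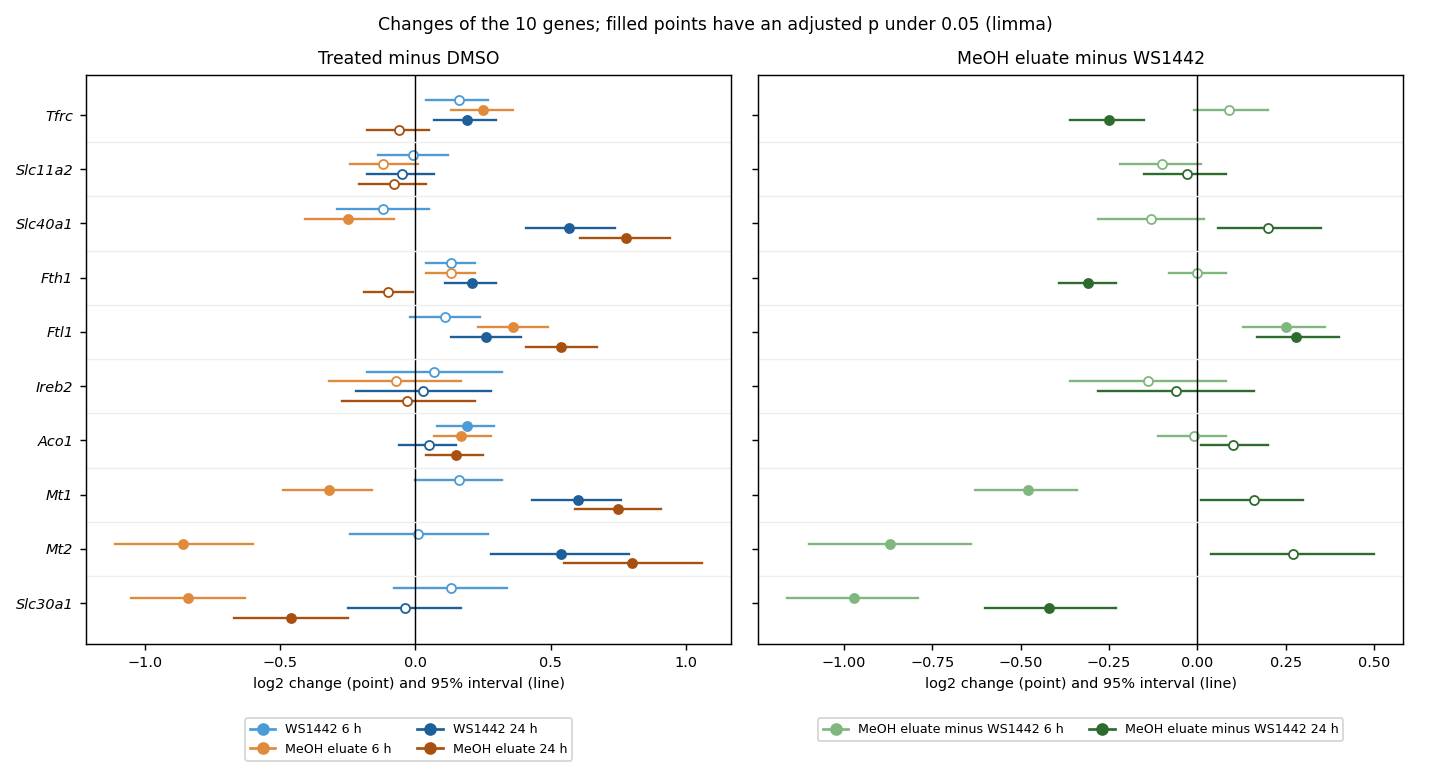
Log2 change of each member against DMSO of the same time point (left) and of MeOH eluate against WS1442 (right), as points with 95% intervals (lines; x axis, log2 change); filled points have an adjusted p under 0.05. Mt1, Mt2 and Slc30a1 lie left of zero with MeOH eluate at 6 h, and Slc40a1, Mt1 and Mt2 lie right of zero with both treatments at 24 h.

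MeOH eluate and WS1442 were also set against each other directly. Their doses differed (0.1 and 0.25 mg/ml), so these differences belong to the doses given and not to equal amounts. At 6 h, 4 of 10 genes differed, against 12.2% of all genes (4.67% higher and 7.49% lower with MeOH eluate): Slc30a1 was lower with MeOH eluate by 0.97 (difference -0.97 on the log2 scale, SE 0.09, adjusted p = 2.08e-05), Mt2 by 0.87 (difference -0.87, SE 0.11, adjusted p = 0.000248) and Mt1 by 0.48 (difference -0.48, SE 0.07, adjusted p = 0.000724), and Ftl1 was higher (0.25, SE 0.05, adjusted p = 0.0113). The Ftl1 difference was lost without WS1442 6 h replicate 3 (0.22, adjusted p = 0.0529) and with the 75th percentile scaling (0.16, adjusted p = 0.06). At 24 h, 4 of 10 differed, against 14.4% of all genes (7.5% higher, 6.89% lower). Ftl1 was higher with MeOH eluate (0.28, SE 0.05, adjusted p = 0.00351), while Slc30a1 (-0.42, SE 0.09, adjusted p = 0.00599), Fth1 (-0.31, SE 0.04, adjusted p = 0.000248) and Tfrc (-0.25, SE 0.05, adjusted p = 0.0033) were lower. With the median over both probes of Slc30a1 its 6 h difference was -0.55 (adjusted p = 0.0106) and its 24 h difference -0.03 (adjusted p = 0.927). The 24 h differences of the genes that had risen with both treatments did not pass: 0.16 for Mt1 (95% interval 0.01 to 0.3, adjusted p = 0.147), 0.27 for Mt2 (0.04 to 0.5, adjusted p = 0.112) and 0.2 for Slc40a1 (0.06 to 0.35, adjusted p = 0.0628). The second Slc11a2 probe also differed at 6 h (-0.38, SE 0.08, adjusted p = 0.00752 over all probes). With the median over the probes of Slc11a2 the 6 h difference was -0.24 (adjusted p = 0.019).

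Whether a change differed between the 2 times was tested as the difference of the differences, each against DMSO of its own slide. With MeOH eluate 5 of 10 genes differed, against 7.51% of all genes (3.83% with a higher change at 24 h, 3.69% with a lower one). Mt2 moved from -0.86 at 6 h to 0.8 at 24 h, a difference of 1.66 (SE 0.17, adjusted p = 2.64e-05), Mt1 from -0.32 to 0.75 (1.07, SE 0.11, adjusted p = 2.4e-05) and Slc40a1 from -0.25 to 0.78 (1.02, SE 0.11, adjusted p = 4.4e-05). Tfrc (-0.31, adjusted p = 0.0204) and Fth1 (-0.23, adjusted p = 0.0306) moved the other way, and these calls were lost in 4 and 7 of 16 fits that left out 1 array, with adjusted p of 0.0505 to 0.134 and 0.0611 to 0.145. Slc30a1 was lower at both times and its difference of 0.38 did not pass (adjusted p = 0.118). With WS1442 2 of 10 differed, against 12.4% of all genes (5.51% higher, 6.92% lower): Slc40a1 (0.69, SE 0.11, adjusted p = 0.00221) and Mt1 (0.44, SE 0.11, adjusted p = 0.0178), the latter lost without DMSO 6 h replicate 2 (0.35, adjusted p = 0.0803) or DMSO 24 h replicate 1 (0.36, adjusted p = 0.0935) and with the 75th percentile scaling (0.32, adjusted p = 0.0999). For Mt2 the difference was 0.53 (adjusted p = 0.0547).

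**Figure D4:**
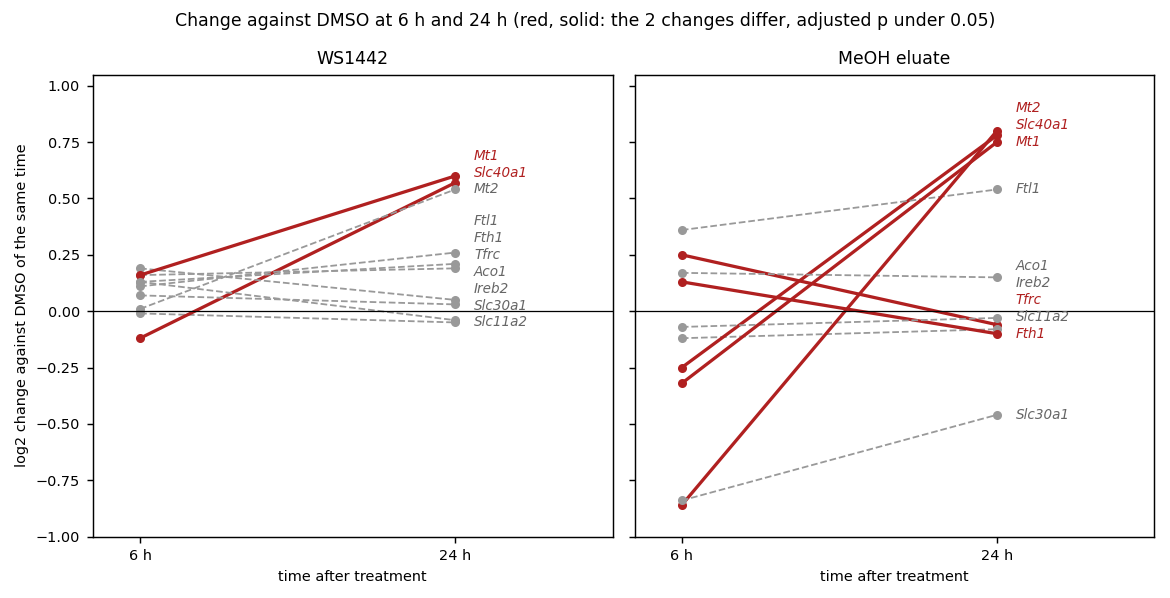
Log2 change of each member against DMSO of the same time (y axis) at 6 h and 24 h (x axis) for WS1442 (left) and MeOH eluate (right). Red solid lines are genes whose changes differ between the times at an adjusted p under 0.05; with MeOH eluate Mt2 runs from -0.86 to 0.8, Mt1 from -0.32 to 0.75 and Slc40a1 from -0.25 to 0.78.

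Genes whose pattern was most like that of Tfrc and of Mt1 were ranked by Pearson correlation over the 16 arrays, after the mean of each time point was removed, among 21032 named genes. These values are a description, since the arrays share treatments, slides and the shape of the normalization. Closest to Tfrc were Dap3 (r = 0.968), Mrps21, Il1rap, Hpcal1 and Slc16a3, and among the members Fth1 (0.9). Closest to Mt1 were Trim30a (r = 0.974), Ephx1, Rab3b, Lpin3 and Nfasc, and among the members Mt2 (0.845) and Slc40a1 (0.82). For Ephx1, a hydrolase that detoxifies epoxides, the log2 differences from DMSO were -0.52 with MeOH eluate at 6 h and 0.7 at 24 h.

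Other genes of metal handling were counted in 7 lists, and the counts stand beside 5.33%, 16.9%, 24.5% and 17.9% of all genes called with WS1442 and MeOH eluate at 6 h and with WS1442 and MeOH eluate at 24 h. In iron transport and reduction, 1 of 20 tested genes was called at 6 h with WS1442, higher, and 2 higher and 3 lower with MeOH eluate; at 24 h the counts were 3 higher and 3 lower with WS1442 and 3 higher and 2 lower with MeOH eluate. These were 5%, 25%, 30% and 25% of the list. Slc39a14, which encodes ZIP14, an importer of zinc and of iron not bound to transferrin, rose 2.17-fold with WS1442 at 24 h (DMSO mean 9.32, WS1442 10.44; log2 change 1.12, adjusted p = 6.34e-05), and its change with MeOH eluate was 0.36 (adjusted p = 0.0776). Slc22a17, which encodes a receptor for lipocalin 2, rose at 24 h with WS1442 (0.59, adjusted p = 0.000305) and with MeOH eluate (0.33, adjusted p = 0.0185), the latter lost without DMSO 24 h replicate 1 or MeOH eluate 24 h replicate 1 (0.27 in each case). Slc25a28, which encodes mitoferrin 2, fell by 0.48 with MeOH eluate at 6 h (adjusted p = 0.000296). The list's medians lay between -0.04 and 0.1.

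Of 13 tested genes of ferritin handling and IRP control, 1 was called higher with WS1442 at 6 h, 2 higher and 1 lower with MeOH eluate at 6 h, 2 higher and 1 lower with WS1442 at 24 h, and 0 with MeOH eluate at 24 h, where 0 had an unadjusted p under 0.05 with limma and with Student's test. These were 7.69%, 23.1%, 23.1% and 0% of the list. Fbxl5, whose protein marks iron regulatory proteins for degradation when iron is plentiful, rose with WS1442 at 24 h (0.32, adjusted p = 0.00849), with a change of -0.01 when the median over its probes was used and a call lost without DMSO 24 h replicate 1 (0.29, adjusted p = 0.0848). In heme synthesis and breakdown, 3 of 16 were called with WS1442 at 6 h, all higher, 6 with MeOH eluate at 6 h, all higher, 3 higher and 4 lower with WS1442 at 24 h, and 2 higher and 5 lower with MeOH eluate at 24 h. These were 18.8%, 37.5%, 43.8% and 43.8% of that list. Alas1, the first and rate-limiting enzyme of heme synthesis outside red cells, rose in all 4 comparisons: by 0.29 and 0.36 at 6 h and by 0.61 and 0.22 at 24 h with WS1442 and MeOH eluate (adjusted p = 0.00731, 0.000381, 6.98e-06 and 0.00769). The 0.61 was 0.29 with the median over the probes of Alas1, and the 0.22 was 0.16 (adjusted p = 0.105). The first and last calls were lost without replicate 1 of DMSO at the matching time (0.24 and 0.22, adjusted p = 0.132 and 0.0596). Cpox, a later enzyme of the same pathway, fell at 24 h by 0.24 under WS1442 and by 0.36 under MeOH eluate (adjusted p = 0.00606 and 0.000359), the first lost without DMSO 24 h replicate 1 (-0.2). Hmox1, the inducible heme oxygenase, rose with MeOH eluate at 6 h (0.3, adjusted p = 0.00679), and was named here after its value was seen.

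In iron-sulfur cluster assembly, 2 of 21 were called higher with WS1442 at 6 h, 2 higher and 2 lower with MeOH eluate at 6 h, 2 higher and 3 lower with WS1442 at 24 h, and 3 higher and 1 lower with MeOH eluate at 24 h. These were 9.52%, 19%, 23.8% and 19% of the list. Fdxr, the mitochondrial ferredoxin reductase, fell by 0.62 and by 0.56 at 24 h with WS1442 and MeOH eluate (adjusted p = 9.16e-05 and 0.000152). Of 12 copper genes, 1 was called higher with WS1442 and 4 higher with MeOH eluate at 6 h, and 2 higher and 1 lower with each at 24 h. These were 8.33%, 33.3%, 25% and 25% of the list, against the same 24.5% of all genes for WS1442 at 24 h. Sco2, a copper chaperone of cytochrome c oxidase, rose with WS1442 at 24 h (0.46, adjusted p = 3.13e-05) and Cox11, another one, with MeOH eluate at 6 h (0.34, adjusted p = 0.000361) and 24 h (0.26, adjusted p = 0.0015). Cox11 was also the copper gene called with WS1442 at 6 h (0.21, adjusted p = 0.0229), a call lost without either DMSO 6 h replicate (0.22 and 0.21) or WS1442 6 h replicate 3 (0.2).

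A list of 11 tested genes held zinc exporters of the Slc30a family, the gene of MTF1 and the metallothioneins Mt3 and Mt4. Of these, 0 were called with WS1442 at 6 h by limma and by Student's test (3 and 2 had an unadjusted p under 0.05), 3 lower with MeOH eluate at 6 h, 1 higher and 3 lower with WS1442 at 24 h, and 2 higher and 2 lower with MeOH eluate at 24 h. These were 0%, 27.3%, 36.4% and 36.4% of the list, and Mt3 was 1 of the 3 lower genes with MeOH eluate at 6 h and with WS1442 at 24 h. Slc30a9 fell by 0.37 with MeOH eluate at 6 h (adjusted p = 0.00259), and at 24 h by 0.31 under WS1442 and by 0.3 under MeOH eluate (adjusted p = 0.00495 and 0.00706), the 24 h calls being lost without DMSO 24 h replicate 1 (-0.29 and -0.28). Mt3, the metallothionein first known from brain, fell by 0.34 with MeOH eluate at 6 h (adjusted p = 0.0133), as Mt1 and Mt2 did, and by 0.52 with WS1442 at 24 h (adjusted p = 0.000589), when those genes rose. The 6 h call of Mt3 was lost without DMSO 6 h replicate 1 (-0.37) or replicate 2 (-0.31).

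Of 12 zinc importers, 1 was called with WS1442 at 6 h and 2 with MeOH eluate at 6 h, all higher, and 3 higher and 2 lower with WS1442 and 3 higher with MeOH eluate at 24 h. These were 8.33%, 16.7%, 41.7% and 25% of the list, against 16.9% of all genes for MeOH eluate at 6 h. Slc39a5, which encodes the zinc importer ZIP5, was well above background on neither DMSO array at 24 h, on 2 of 3 with WS1442 and on 3 of 3 with MeOH eluate. In the quantile-normalized values it was at least 2.01-fold and at least 3.04-fold higher with the treatments (limma, adjusted p = 0.0128 and 0.00314). These bounds set the mean of the treated group against the lowest signal well above background on each DMSO array. The WS1442 mean includes the array that was not well above background. Both calls were lost without DMSO 24 h replicate 1, and that with WS1442 also without WS1442 24 h replicate 3. With normexp background correction the fitted log2 changes of 2.14 and 2.74 became 0.34 and 0.47, below these bounds, which therefore hold only for the main processing. Slc39a9 rose with both at 24 h (0.42 and 0.34, adjusted p = 0.000154 and 0.000766), and with the median over its probes the changes were 0.22 and 0.15 and did not pass.

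**Figure D5:**
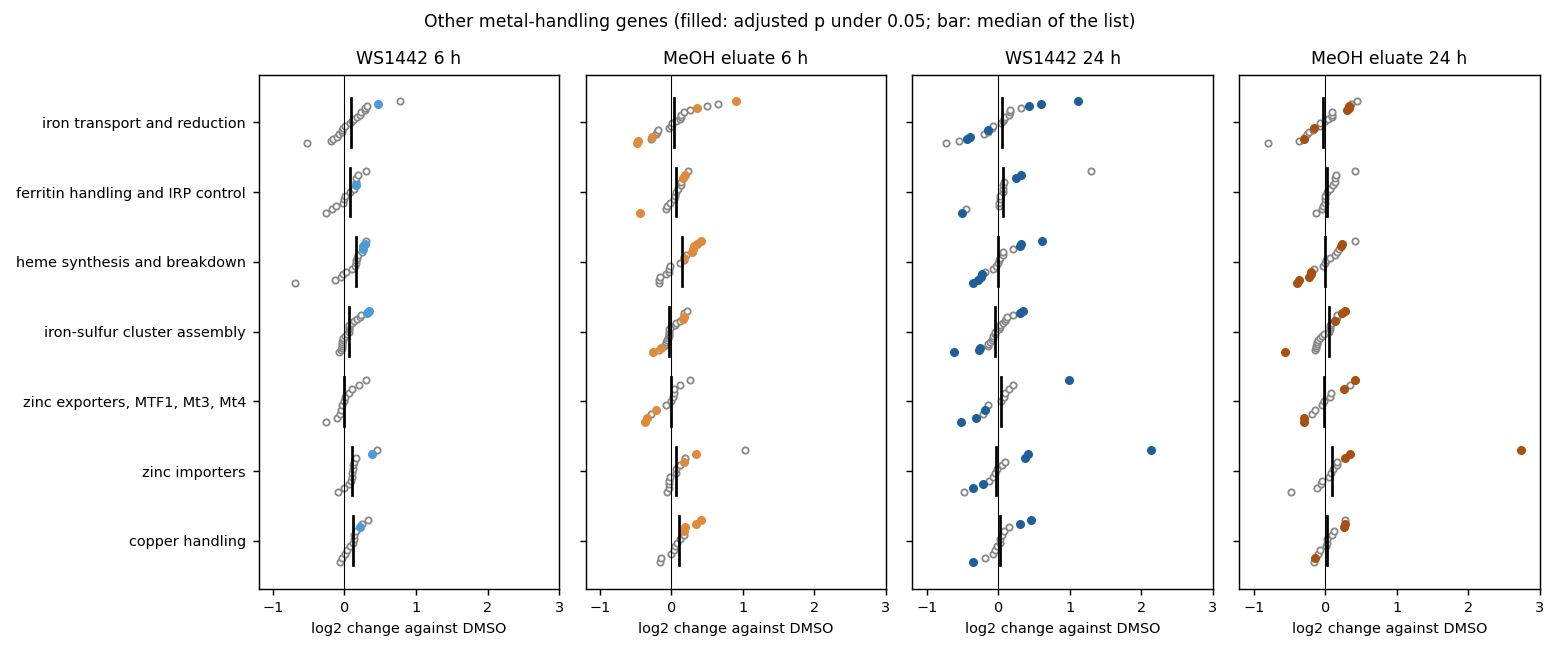
Log2 change against DMSO (x axis) of every tested gene of the 7 lists of other metal-handling genes (y axis), one panel per comparison. Filled points have an adjusted p under 0.05, open points do not, and black bars are list medians, which stay between -0.05 and 0.16; the points at 2.14 and 2.74 are Slc39a5, whose DMSO samples were not well above background.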

How the data were processed

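RNA of 16 samples was labelled with Cy3 and hybridised to 1-colour Agilent arrays. The deposited scanner files hold the intensity of 60273 probes as the authors' scanning software gave it, corrected for background and for trends within the array and not normalized between arrays. The deposited table holds the authors' linear intensities after quantile normalization and was used as an alternative. Groups came from the sample labels. Here the processed intensity was taken to log2 and quantile-normalized. A probe was kept where all arrays of some group had it well above background (36729 probes), and the brightest kept probe stood for a gene (30973 genes, 21051 with a gene name). Probes were named through the RefSeq accessions that they carry.

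All 6 group means were fitted with limma 3.58.1 in R 4.3.3 (lmFit, and eBayes with trend), and p-values were adjusted over all genes tested by the Benjamini-Hochberg method. A gene was called at an adjusted p under 0.05. Intervals are at 95%. The member probes were well above background on all 16 arrays for 13 of 14, and none was saturated. With 2 or 3 arrays a group, the number of arrays limits the precision. The methods name Student's t-test in general and no test for the arrays; it was run as an alternative beside other scalings, filters, background correction and weights, a replicate block, fits within a time point and fits without each array. The fit was tested on simulated data. The members and lists were chosen with earlier results of these data known. All 10 members are named, with at most 4 called genes of each list by absolute log2 change and the 5 genes most like Tfrc and Mt1. Of the genes which that rule gives, those described are a selection made after their values were seen. 1 gene of the lists is not reported here.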

Additional observations from a re-analysis of the deposited data

Results flagged for a closer look

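For 7 results the change against DMSO at 24 h differed from that at 6 h, by a test of the difference itself in limma. With WS1442 these were Slc40a1 (difference 0.69 on the log2 scale, adjusted p = 0.00221) and Mt1 (0.44, adjusted p = 0.0178). With MeOH eluate they were Mt2 (1.66, adjusted p = 2.64e-05), Mt1 (1.07, adjusted p = 2.4e-05), Slc40a1 (1.02, adjusted p = 4.4e-05), Tfrc (-0.31, adjusted p = 0.0204) and Fth1 (-0.23, adjusted p = 0.0306). Each time point lay on its own slide. No group held enough samples for a test of single outlying arrays.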

How the results depend on the processing

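The 2 DMSO samples per time set most of the limits: over fits without 1 array, members called ranged from 0 to 2, 4 to 7, 4 to 6 and 5 to 6 in the order WS1442 6 h, MeOH eluate 6 h, WS1442 24 h and MeOH eluate 24 h, the same ranges holding for every probe of the members, and genes of the lists from 0 to 13, 7 to 30, 14 to 34 and 11 to 27. Without DMSO 6 h replicate 1 the MeOH eluate at 6 h had 4 members called (of 7) and 7 list genes (of 27), and WS1442 at 6 h had 0 list genes (of 9). Without DMSO 24 h replicate 1 the lists had 14 (of 33) and 11 (of 26) at 24 h. Other list counts that moved by over 1.5 times were 4 without WS1442 6 h replicate 3, 17 without MeOH eluate 6 h replicate 3, and 17 at 24 h with MeOH eluate without DMSO 24 h replicate 2 or MeOH eluate 24 h replicate 1. The direct comparisons ranged from 3 to 4 and 4 to 5 members, and the differences between times from 1 to 3 with WS1442 (1 without DMSO 6 h replicate 2) and 3 to 5 with MeOH eluate (3 without DMSO 6 h replicate 1, either DMSO 24 h replicate or MeOH eluate 24 h replicate 3).

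With WS1442 at 6 h, the 1 member called became 3 with the 75th percentile scaling, 2 with the authors' table, and 0 by eBayes without trend, Student's test, the replicate block or the fit within the time point. Counted over every probe it became 2 with that scaling, that table, array weights or only probes above background on all arrays, and 0 in the same other 4 settings. List genes with WS1442 at 6 h (9) became 5 with normexp or without trend, 4 with the block or within the time point, and 0 by Student's test. That scaling gave 15 list genes (27) with MeOH eluate at 6 h, 3 members and 3 probes (6 and 6) with WS1442 at 24 h, and 1 difference between times with WS1442 (2), and eBayes without trend gave 3 with MeOH eluate (5). Student's test called 0 members, probes and list genes with MeOH eluate at 6 h and with WS1442 at 24 h, 1 of each with MeOH eluate at 24 h, and 0 members in both direct comparisons. No shares of all genes stand beside the counts of these settings. With the 75th percentile scaling, the share of higher genes among all called was 84.6% in place of 74.1% with WS1442 at 6 h and 39% in place of 50.6% at 24 h. Reversed were Fth1 with WS1442 at 24 h under that scaling (-0.01) and, with the median over probes, Cdc42bpa (0.04, otherwise -0.51) and Fbxl5 (-0.01, otherwise 0.32) in that comparison; the cause was not tested.

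Whether the replicate numbers pair the samples could not be settled. The correlation of deviations from the group mean ran from -0.234 to 0.303 over 14 pairs of same-numbered samples (median -0.06). Over 28 pairs of other numbers it ran from -0.203 to 0.248 (median 0.02). The 2 DMSO samples of a time have mirrored deviations, so pairs with DMSO cannot decide the question. With the replicate block, 0, 6, 6 and 5 members were called in the 4 comparisons, and 4 of 80 single member results crossed the threshold.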
